A study of Mus musculus with 12 samples.

Results

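Merging the H3K4me3 peaks of the MGE, LGE, CGE and cortex (CTX) into intervals, with peaks that overlapped or touched joined, gave 29785 union intervals, and 1675 of them (5.62%) held a peak of exactly 3 regions and none of the other. These 1675 intervals were chosen by the presence or absence of a peak in each region's list, and they were divided by the region without a peak. CTX had no peak in 763 intervals (2.56% of the union), LGE in 359 (1.21%), MGE in 327 (1.1%) and CGE in 226 (0.759%). With the lists cut to equal length by −log10 q, the counts were 789 (CTX), 141 (LGE), 636 (MGE) and 96 (CGE). Because presence in the lists selected the members, their width, fold enrichment and significance in the same lists are descriptions, and no test was made of them.

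H3K4me3 was profiled by CUT&Tag, in which an antibody brings a transposase to the modified chromatin and the released DNA is sequenced, in forebrain tissue microdissected from wild-type C57BL/6J embryos at E12.5. All 4 groups shared this genotype, strain and age, the labels name no treatment, and the groups differed in the tissue, which was the medial (MGE), lateral (LGE) or caudal (CGE) ganglionic eminence or the cortex. Each region had 2 numbered replicates, spread over 12 libraries in all (4 of CGE, 3 of CTX, 3 of MGE and 2 of LGE), which the authors merged before calling peaks, so each region was 1 list with no spread between replicates. The protocol in the labels also names E14.5 and describes nuclei of the 4 regions being combined in equal numbers, although every library carries the name of only 1 region. Each tissue is a mixture of progenitors and young neurons, so fewer marked cells and less mark per cell cannot be told apart.

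The ganglionic eminences are the ventral birthplace of GABAergic neurons, the MGE giving rise to many cortical interneurons, the LGE to striatal projection neurons and the CGE to further interneuron types, whereas the cortical wall produces glutamatergic projection neurons. H3K4me3 marks the start of active genes and of genes held ready for activity, is found most strongly over promoters rich in CpG dinucleotides, and is weaker or absent where a gene is silent.

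The lists differed in length and in peak width. The MGE list held 25339 peaks with a median width of 563 bp, the CTX list 21442 with 701 bp, the CGE list 17752 with 1240 bp and the LGE list 17284 with 1168 bp. In every list some of the peak caller's running numbers were absent, 31 in CTX, 33 in MGE, 59 in LGE and 64 in CGE, and a few of the 1675 intervals lay between the peaks that flank such a gap in the list that lacked them (3 for CTX, 2 for MGE, 2 for LGE and 4 for CGE). The 4 in CGE bear directly on that class and are given with it. By the study's methods the regions were sequenced to unequal depths, CGE the deepest and MGE the shallowest. The files give no reads per peak, and the part of depth in the classes was not tested.

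The promoter sequences below, 250 bp before to 50 bp after the transcription start site (TSS), show the range of CpG content among the members, from promoters of the fixed gene lists and from the strongest interval of a class. They are from RefSeq, build GRCm38.p6, with CpG dinucleotides in capitals. Slc32a1 lies at chr2:158610508-158610807 (+ strand), Nkx2-1 at chr12:56536859-56537158 (− strand) and Dcx at chrX:143933075-143933374 (− strand), and all of them were missing from CTX. Nhlh1 at chr1:172057547-172057846 (− strand) was missing from MGE, Crmp1 at chr5:37241808-37242107 (+ strand) from LGE and Aida at chr1:183296810-183297109 (+ strand) from CGE.
Slc32a1: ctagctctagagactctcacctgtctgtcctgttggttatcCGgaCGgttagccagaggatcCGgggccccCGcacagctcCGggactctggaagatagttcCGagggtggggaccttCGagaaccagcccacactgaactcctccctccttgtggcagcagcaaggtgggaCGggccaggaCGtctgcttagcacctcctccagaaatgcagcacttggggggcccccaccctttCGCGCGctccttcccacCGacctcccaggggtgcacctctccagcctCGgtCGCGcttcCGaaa
Nkx2-1: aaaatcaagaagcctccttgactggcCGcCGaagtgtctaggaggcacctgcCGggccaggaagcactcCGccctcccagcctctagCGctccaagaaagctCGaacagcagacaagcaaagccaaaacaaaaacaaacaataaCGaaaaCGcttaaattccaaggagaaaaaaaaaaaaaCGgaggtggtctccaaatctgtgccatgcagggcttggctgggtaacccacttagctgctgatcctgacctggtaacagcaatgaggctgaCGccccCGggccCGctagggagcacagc
Dcx: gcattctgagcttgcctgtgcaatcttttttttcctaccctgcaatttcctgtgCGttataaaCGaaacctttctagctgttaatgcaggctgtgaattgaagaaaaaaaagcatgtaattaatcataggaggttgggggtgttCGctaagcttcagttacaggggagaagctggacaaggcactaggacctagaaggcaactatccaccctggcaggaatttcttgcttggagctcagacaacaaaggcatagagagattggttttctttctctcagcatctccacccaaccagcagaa
Nhlh1: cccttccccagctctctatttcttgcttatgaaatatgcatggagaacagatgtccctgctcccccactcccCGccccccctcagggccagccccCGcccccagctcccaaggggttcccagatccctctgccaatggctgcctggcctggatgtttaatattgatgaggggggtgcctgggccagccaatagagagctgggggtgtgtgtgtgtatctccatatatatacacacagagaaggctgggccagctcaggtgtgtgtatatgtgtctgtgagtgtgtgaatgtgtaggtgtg
Crmp1: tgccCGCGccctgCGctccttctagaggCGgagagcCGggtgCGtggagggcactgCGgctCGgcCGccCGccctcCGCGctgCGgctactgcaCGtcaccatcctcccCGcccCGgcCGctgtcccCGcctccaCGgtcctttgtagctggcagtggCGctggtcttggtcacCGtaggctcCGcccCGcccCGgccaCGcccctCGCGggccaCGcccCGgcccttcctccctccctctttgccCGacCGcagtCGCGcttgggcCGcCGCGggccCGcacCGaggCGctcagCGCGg
Aida: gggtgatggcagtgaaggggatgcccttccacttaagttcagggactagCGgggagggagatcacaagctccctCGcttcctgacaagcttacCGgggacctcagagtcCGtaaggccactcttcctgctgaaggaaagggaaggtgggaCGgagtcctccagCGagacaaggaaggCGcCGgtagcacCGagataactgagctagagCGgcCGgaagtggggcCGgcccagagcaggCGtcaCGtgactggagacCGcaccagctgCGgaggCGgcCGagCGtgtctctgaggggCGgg
The 300-base windows held 41 CpGs at Crmp1, 20 at Aida, 17 at Slc32a1, 12 at Nkx2-1, 3 at Dcx and 2 at Nhlh1. Over all 32851 RefSeq promoter windows the median was 7, with 3 and 20 at the 25th and 75th percentiles, so Dcx and Nhlh1 were at or under the lower quartile and Crmp1 was above the upper. The windows of Slc32a1, Crmp1 and Aida lay wholly inside the member interval, and those of Nkx2-1, Dcx and Nhlh1 shared 65, 169 and 186 bases with it. RefSeq promoters were matched by symbol for 225 of the 296 protein-coding genes at CTX-missing intervals, 125 of 168 for MGE, 47 of 58 for LGE and 33 of 42 for CGE.

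The classes fell into a promoter-rich pair and a promoter-poor pair. A promoter, taken as the 2 kb upstream of any annotated TSS, was overlapped by 54.1% of the MGE-missing intervals (Wilson 95% interval 48.7% to 59.5%, counting error only) and by 47.1% of the CTX-missing intervals (43.5% to 50.6%), against 21.2% of the LGE-missing (17.3% to 25.7%) and 23.5% of the CGE-missing intervals (18.4% to 29.4%). The Wilson intervals of the MGE and CTX classes do not overlap those of the LGE and CGE classes. They count members drawn from 1 pooled list per region, hold no spread between replicates and are no test between regions. Over all union intervals the share was 51.8%, it was 86.7% where all 4 lists had a peak, 26.0% with exactly 2 lists and 1321 of 11006 with 1 list. The shares themselves moved by over 1.5 times with some definitions, that of CGE to 36.5% with lists cut to equal length by fold, and with promoters at the 5′ end of the gene alone those of LGE and CGE to 10.6% and 14.2%. Asking that most of the interval lie in the promoter gave 21.9% for CTX, 30.6% for MGE, 13.9% for LGE and 15.9% for CGE. The Wilson intervals above are for the first definition alone.

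Widths divided the same way. The median interval was 891 bp without CTX and 869 bp without MGE, and 520 bp without LGE and 527 bp without CGE, against 1370 bp for intervals in all 4 lists. More than 2 kb from any TSS lay 72.4% of the LGE-missing and 70.4% of the CGE-missing intervals, against 45.1% without CTX and 36.7% without MGE (43.4% of the union). Introns outside promoters held 30.9% of all LGE-missing and 35.0% of all CGE-missing intervals, against 21.3% of the union. The shares were 17.0% without CTX and 11.3% without MGE. These are shares of whole classes, so they depend in part on the promoter shares above. On the X chromosome lay 29 of the CTX-missing intervals (3.80%), 5 of the MGE-missing, 4 of the CGE-missing and 1 of the LGE-missing, and 2.32% of the union.

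**Figure D1:**
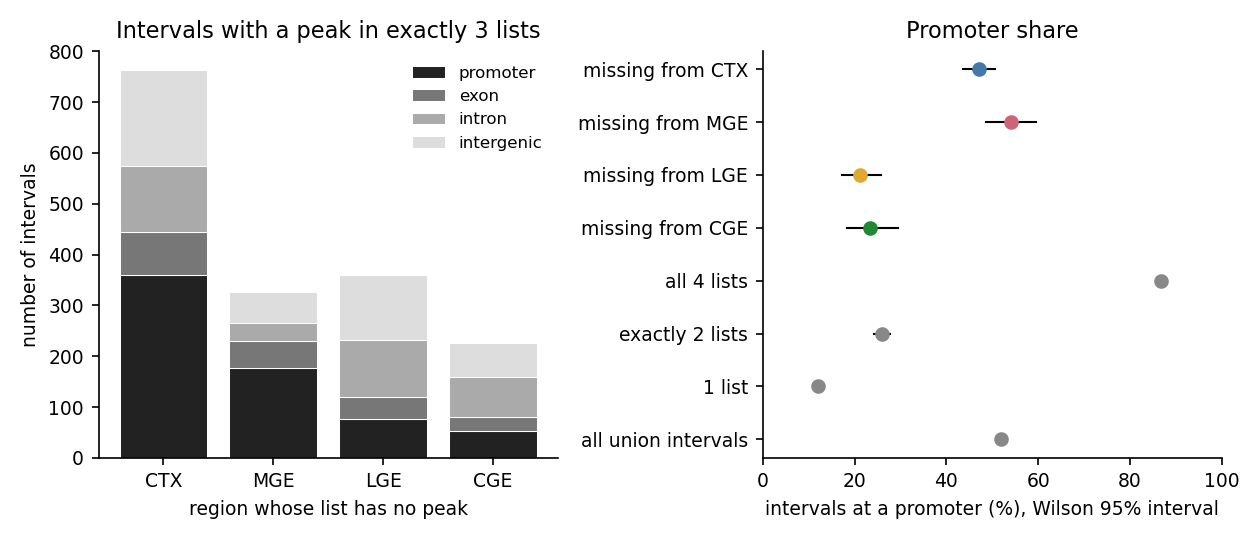
Left, number of intervals in each class by where they lie (promoter first, then exon, intron or intergenic). Right, share of intervals at a promoter (%) with Wilson 95% intervals, for the 4 classes and for intervals held by other numbers of lists. CTX-missing (47.1%) and MGE-missing intervals (54.1%) lie apart from LGE-missing (21.2%) and CGE-missing ones (23.5%).

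The order of the classes by size depended in part on which peaks were used. CTX was the region most often missing and CGE the least under all of the 8 alternatives that changed the peaks or members. MGE and LGE exchanged places when the lists were made alike, with 636 MGE-missing against 141 LGE-missing intervals when each list was limited to its 17284 most significant peaks. The higher promoter share of the CTX- and MGE-missing classes was seen under each of these alternatives.

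The members were weak in the lists that held them. The best peak of each interval was ranked by its −log10 q within its own list, and the lowest of the 3 percentiles was taken as the interval's strength rank. The median strength rank was 11.4 for CTX-missing, 8.80 for MGE-missing, 7.94 for LGE-missing and 7.16 for CGE-missing intervals, against 53.0 for intervals in all 4 lists, where the lowest is taken over 4 percentiles. In 46.5%, 38.2%, 44.6% and 52.2% of them, respectively, at least 1 of the 3 lists gave a −log10 q under 2, against 6.10% of the intervals in all 4 lists.

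The 3 marked lists contributed unequally, least so in the MGE-missing class. In CTX-missing intervals the median percentile was 31.2 in the MGE list, 17.6 in CGE and 14.4 in LGE, and in LGE-missing intervals it was 38.2 in MGE, 26.6 in CTX and 8.46 in CGE. CGE-missing intervals had medians of 34.8 in MGE, 26.5 in CTX and 8.16 in LGE. MGE-missing intervals had the most even medians, 19.0 in CTX, 15.6 in CGE and 12.3 in LGE. The LGE- and CGE-missing intervals lay among the lowest-ranked peaks of whichever of the CGE and LGE lists still held them. Cover ran differently from rank, since the MGE list covered the fewest bases in 79.8% of the CTX-missing intervals, and the CGE list the most in 62.6%. In intervals of all 4 lists these shares were 55.0% and 74.5%, where the list is picked from 4 and not from 3.

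**Figure D2:**
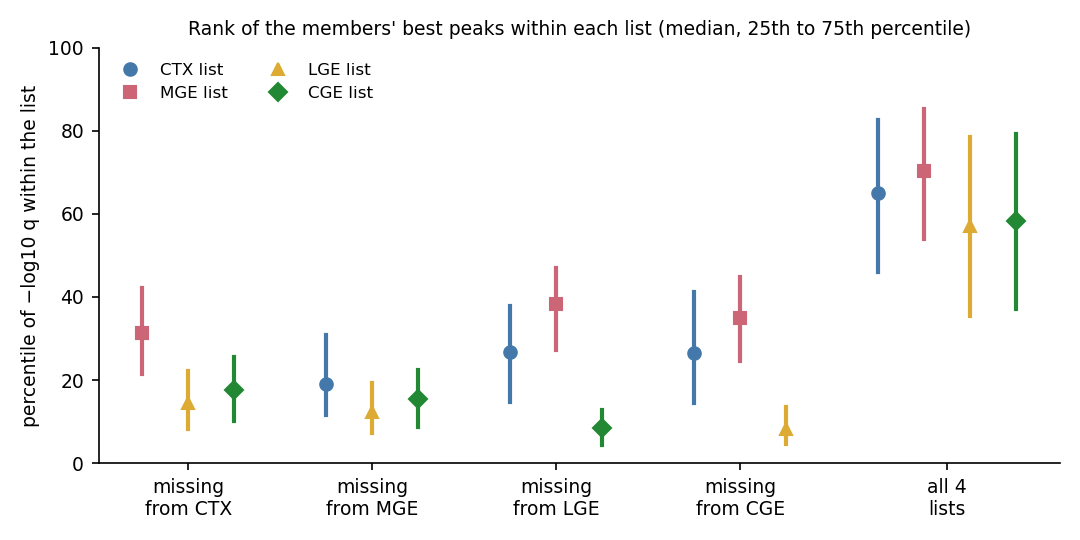
Percentile of −log10 q within each list (0 to 100) for the best peak of each interval. Symbols are medians and bars run from the 25th to the 75th percentile, by class and by the list that holds the peak. In the 4 classes the medians lie between 8.16 and 38.2, and in intervals of all 4 lists between 57.1 and 70.3.

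The distance to the missing list's own peaks varied widely. The nearest peak of the missing list lay a median of 25679 bp away for CTX, 18582 bp for CGE, 17560 bp for LGE and 11704 bp for MGE. It lay within 1 kb for 14 CTX-missing, 5 MGE-missing, 6 LGE-missing and 2 CGE-missing intervals, the closest at 81, 60, 64 and 170 bp. Within 10 kb it lay for 30.0%, 46.5%, 33.7% and 34.5% of them in the same order. Just outside the rule, among the 14826 intervals in all 4 lists, CTX peaks shared under 100 bp with any other list's peak in 11 intervals and MGE peaks in 10, and LGE and CGE peaks in 0.

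The CTX-missing class held promoters of 296 protein-coding genes (1.35% of the 21951 annotated), and 196 of them (66.2%, 60.7% to 71.4%) had no CTX peak at any of their promoters. With promoters at the 5′ end of the gene alone, 180 genes were counted. Of the fixed lists, those of GABAergic, MGE and receptor genes gave most of its members. Of 24 pan-eminence and GABAergic genes, 6 (25%) were in this class (Dlx6, Gsx1, Lmo1, Six3, Slc32a1 and Sp9), and of 24 genes of the MGE and its interneurons 4 (16.7%) were (Lhx6, Lhx8, Nkx2-1 and Npy). With lists cut to equal length by fold, all 6 of the former left the class, as did Lhx6, Lhx8 and Nkx2-1, and Npy stayed. With lists cut to equal length by −log10 q, only Gsx1 of all these genes left. Of 34 GABA and glutamate receptor subunits 6 (17.6%) were in it, among them Gabbr2, Gria1, Grik3 and Grm5. Most genes of these lists had a promoter interval in all 4 lists, and so a CTX peak. This was so for 21 of the 24 pan-eminence and GABAergic genes, 17 of the 24 MGE genes and 26 of the 34 receptor subunits. None of the 14 CGE genes and none of the 28 cortical projection neuron genes was CTX-missing. In lists this short, such counts are not set apart from the 1.35% of all protein-coding genes. The percentages stand beside the 1.35% of all protein-coding genes as counts and were not tested.

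Slc32a1, which encodes the vesicular GABA transporter, lay under the second widest CTX-missing interval, 4014 bp at chr2:158609139-158613152. MGE peaks covered 3022 bp of it, LGE peaks 3805 bp and CGE peaks 4014 bp, with fold enrichments of 2.75, 2.13 and 2.54 and −log10 q of 9.92, 25.002 and 94.7. The −log10 q scales of the lists differ, the median peak having 5.19 in the MGE list, 8.57 in the CTX list, 40.0 in the LGE list and 79.3 in the CGE list, so lists are compared by percentile within the list, which here was 62.6, 39.9 and 54.5. Its strength rank of 39.9 was far above the class median of 11.4, and the nearest CTX peak was 11600 bp away. Sp9, a zinc finger factor of eminence-derived neurons, was covered evenly, with 2973, 3033 and 3110 bp in MGE, LGE and CGE, and a rank of 38.5. Both were among the 10 protein-coding genes of highest rank in the class.

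Nkx2-1, the homeobox gene that specifies the MGE, was missing from CTX and marked in all 3 eminences. MGE peaks covered 3141 bp, LGE peaks 2934 bp and CGE peaks 3804 bp of the 3900-bp interval, with −log10 q of 16.0, 3.52 and 30.9. Within the lists this was a percentile of 72.2 in MGE, 11.4 in LGE and 34.9 in CGE, and the fold was also highest in MGE (3.05, 2.89 and 2.91). Lhx6, a LIM homeobox gene downstream of Nkx2-1 in interneurons, lay at the widest member of any class, of 5069 bp. CGE peaks covered all of its 5069 bp, LGE peaks 2830 bp and MGE peaks 2485 bp, and the −log10 q was 17.0, 3.02 and 12.4. By percentile MGE was highest at 66.8, ahead of CGE at 27.6 and LGE at 9.26, and the fold was 4.00 in MGE, 2.47 in CGE and 2.44 in LGE. At both genes MGE thus had the highest percentile and LGE the lowest. The medians of the whole class ran in the same order (31.2 in MGE, 17.6 in CGE and 14.4 in LGE). The strength ranks of Lhx6 (9.26) and Nkx2-1 (11.4) were near or below the class median although both intervals were wide.

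Lhx8, a LIM homeobox gene of cholinergic and MGE neurons, had 2 CTX-missing intervals, of 1212 and 1114 bp, and no CTX promoter peak. In the first, MGE peaks covered 1043 bp, CGE peaks 849 bp and LGE peaks 665 bp, and in the second 1023, 1020 and 543 bp. LGE covered the fewest bases in both. Npy, the neuropeptide Y gene of a class of interneurons, was covered for 1111, 1827 and 2032 bp in MGE, LGE and CGE. For Gsx1, a homeobox gene of eminence progenitors, the order was different, with 1518, 684 and 2087 bp in MGE, LGE and CGE.

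Among the remaining eminence genes of the class, Six3, a forebrain homeobox gene, was covered for 1565, 1848 and 2199 bp in MGE, LGE and CGE. Dlx6, a distal-less homeobox gene, had 853, 2257 and 2286 bp, and Lmo1, which encodes a LIM-only cofactor, 222, 1255 and 1244 bp. Dlx6 and Lmo1 were not bare of H3K4me3 in CTX, since each had a CTX peak at another of its promoters, and the nearest CTX peak of any kind lay 1122 and 2783 bp away. The same held for Meis1, a homeobox gene of the striatal lineage, whose CTX-missing interval lay 1749 bp from the nearest CTX peak and had the third highest rank among the genes of the class.

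Cover of the receptor genes followed that of the class. Grik3, a kainate receptor subunit, had the second highest rank among the genes of the class and was covered for 2633, 2841 and 3583 bp in MGE, LGE and CGE. Gria1, an AMPA receptor subunit, was covered for only 118 bp in MGE but for 2231 and 2215 bp in LGE and CGE. Grm5, a metabotropic glutamate receptor, had 540, 627 and 844 bp, and Gabbr2, a subunit of the metabotropic GABA receptor, 670, 2284 and 2724 bp. MGE peaks covered the fewest bases in all 4, as in 79.8% of the whole class, and none had a CTX peak at any promoter.

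Postmitotic neuronal genes also appeared. Of 28 pan-neuronal genes, Dcx, which encodes the microtubule protein doublecortin of migrating neurons, and Rbfox3, which encodes the nuclear protein NeuN, were CTX-missing. Dcx was covered for 843, 2238 and 2472 bp in MGE, LGE and CGE, with −log10 q at percentiles of 49.5, 25.8 and 36.1, and its nearest CTX peak was 265748 bp away. Rbfox3 had 276, 1216 and 1273 bp, but also a CTX peak at another promoter. A promoter interval in all 4 lists was found for 26 of the 28. Among 26 genes of the LGE and striatal lineage Meis1 and Drd2 (7.69%) were CTX-missing. With lists cut to equal length by fold both left the class, and by −log10 q only Drd2 did. Drd2, a dopamine receptor of striatal projection neurons, was covered for 165 bp in MGE, 1542 and 1810 bp in LGE and CGE.

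Signalling genes of the class were Fgf3 (513, 1749 and 1596 bp in MGE, LGE and CGE), Fgf16 (1584, 1899 and 2100 bp) and Wnt5a (283, 1264 and 1391 bp), which encode secreted ligands and made up 3 of 47 Wnt, Bmp and Fgf genes (6.38%). With lists cut to equal length by fold Fgf16 and Wnt5a left the class, and by −log10 q only Fgf16 of the 3 did. Gdnf, a neurotrophic factor and 1 of 33 guidance genes, had 269, 1183 and 1184 bp. Wnt5a, also 1 of 28 cortical progenitor genes, lay 158 bp from a CTX peak, and the others had none at a promoter. MGE peaks covered the fewest bases of each, again as in most of the class.

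The 10 strongest CTX-missing genes were Slc45a1, Grik3, Meis1, Gjd2, Rbfox1, Cacnb4, Osbp2, Clasp2, Slc32a1 and Sp9, at strength ranks from 55.6 down to 38.5. Gjd2 encodes connexin 36 of neuronal gap junctions, Rbfox1 a neuronal splicing regulator and Cacnb4 a calcium channel subunit. Gjd2 was covered for 881, 1484 and 1715 bp in MGE, LGE and CGE, and had no CTX promoter peak. Of the 10, only Grik3, Gjd2, Slc32a1 and Sp9 had none, and the other 6 (Slc45a1, Meis1, Rbfox1, Cacnb4, Osbp2 and Clasp2) were marked in CTX at another promoter. The CTX-missing interval of Rbfox1 lay 311503 bp from the nearest CTX peak, so for such genes the absence concerned some promoters and not the gene.

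**Figure D3:**
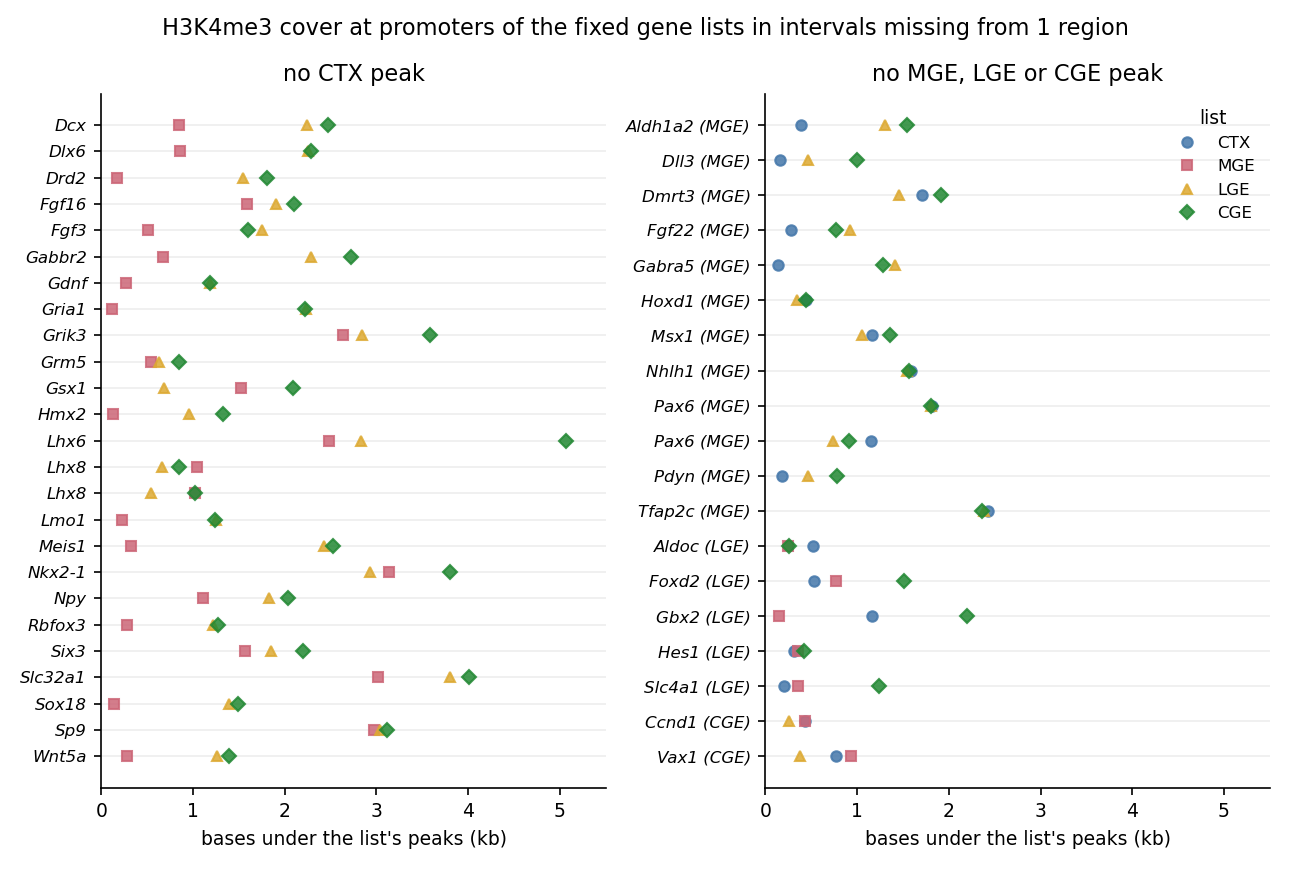
Bases under the peaks of each list (kb) at promoters of the genes of the fixed lists that are named in the text, for intervals missing from CTX (left) and from MGE, LGE or CGE (right, missing list in brackets). Each row is 1 interval and each symbol 1 list. On the left the MGE symbol is the lowest in 21 of 25 rows and the CGE symbol the highest in 20, beside 79.8% and 62.6% of all CTX-missing intervals.

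Membership of several of these genes depended on the measure by which peaks were ranked when lists were cut to equal length. When all lists were limited to the same number of peaks by fold enrichment, 16 of the 32 named CTX-missing genes were kept, and Slc32a1, Sp9, Nkx2-1, Lhx6, Six3, Gsx1, Dlx6 and Grik3 were among those that left. With peaks chosen by −log10 q instead, 27 were kept, and Drd2, Fgf16, Gsx1 and Sox18 were among those that left. Under all 8 alternatives that changed the peaks or the members, 11 of the 32 stayed, among them Npy, Gabbr2, Grm5, Fgf3, Gdnf, Gjd2, Rbfox1 and Rbfox3. With promoters at the 5′ end of the gene alone, 21 of the 32 were kept. Rbfox3, Clasp2, Cacnb4, Osbp2, Dcx, Gria1, Lmo1 and Lhx8 were among those that left.

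The MGE-missing class held promoters of 168 protein-coding genes (0.765% of those annotated), and 124 of them (73.8%, 66.7% to 79.9%) had no MGE promoter peak. The gene count rose to 330 with peaks of −log10 q of at least 2, and to 347 and 433 with lists of equal length by −log10 q and by fold. Its fixed-list genes included factors of the dorsal forebrain. Of 28 cortical progenitor factors 3 (10.7%) were MGE-missing (Dmrt3, Pax6 and Tfap2c), and of 28 genes of cortical projection neurons 1 (Nhlh1, 3.57%). Most genes of both lists had a promoter interval in all 4 lists, and so an MGE peak. This was so for 22 of the 28 progenitor factors and 23 of the 28 projection neuron genes. Another of the progenitor factors, Wnt5a, was CTX-missing. With lists of equal length by fold Dmrt3, Pax6 and Tfap2c all left the class and Nhlh1 stayed. With lists of equal length by −log10 q all of them stayed. None of the 24 pan-eminence and none of the 24 MGE genes was in the class, which is not set apart from the 0.765% of all protein-coding genes. The counts are small and were not tested.

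Tfap2c, the AP-2 gamma transcription factor of cortical basal progenitors, had the highest rank among the genes of the class, 34.1. It was covered for 2430, 2383 and 2361 bp in CTX, LGE and CGE, with folds of 3.67, 3.71 and 3.62. The −log10 q was 12.1, 20.6 and 29.6, at percentiles of 57.2, 36.8 and 34.1. CTX was the highest, as in the medians of the whole class (19.0 in CTX, 15.6 in CGE and 12.3 in LGE). The cover of Tfap2c was nearly equal in the 3 lists, and the nearest MGE peak was 108354 bp away. Dmrt3, a doublesex-related factor of the medial pallium, was covered for 1705, 1460 and 1914 bp in CTX, LGE and CGE. Nhlh1, a basic helix-loop-helix factor of newborn neurons, was as even as Tfap2c, at 1591, 1546 and 1562 bp, with an MGE peak 2117 bp away that was at none of its promoters.

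Pax6, the homeobox gene of dorsal progenitors, had 2 MGE-missing intervals, of 1937 and 1313 bp. The first was covered for 1818, 1806 and 1810 bp in CTX, LGE and CGE, and the second for 1147, 739 and 907 bp. A different Pax6 promoter had an MGE peak, and MGE peaks lay 4820 and 3443 bp away, so the absence again concerned some promoters. Pax6 and Pdyn were 2 of the 26 LGE and striatal genes (7.69%), and Pax6 left the class with lists of equal length by fold. Pdyn, the dynorphin precursor of striatal neurons, was covered for 179, 459 and 782 bp in CTX, LGE and CGE, and had no MGE promoter peak.

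Markers of neighbouring tissue were also among the MGE-missing genes, 1 from each of several lists. Msx1, a homeobox gene of the dorsal midline, was covered for 1160, 1052 and 1362 bp in CTX, LGE and CGE, and Aldh1a2, a retinoic acid synthesising enzyme of the meninges, for 387, 1307 and 1543 bp. Hoxd1, the only 1 of 39 Hox genes in any class, had 447, 343 and 438 bp. Msx1 was 1 of 15 choroid plexus and hem genes and Aldh1a2 1 of 15 mesenchyme and meninges genes, and 8 and 6 genes of those sets had a promoter interval in all 4 lists. Gabra5 (138, 1416 and 1284 bp), Fgf22 (276, 919 and 775 bp) and Dll3 (154, 462 and 998 bp), a GABA receptor subunit, a secreted ligand and a Notch ligand, completed the list genes. The part of such tissue in these intervals was not tested.

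The strongest MGE-missing promoters after Tfap2c were those of Cdhr5 and Sct, which share 1 interval, and of Oprk1, Plekha6, Nhlh1, Dpys, Ddx60, Ccdc106 and Cbln4, at ranks from 28.9 to 24.2. Sct encodes the hormone secretin, Oprk1 the kappa opioid receptor and Cbln4 a secreted synaptic organiser. Oprk1 was covered for 368, 748 and 1152 bp in CTX, LGE and CGE, and Cbln4 for 1321, 2558 and 2752 bp. Of the 10 genes, Plekha6 and Ccdc106 had an MGE peak at another promoter and the other 8 had none. The widest members were at E130114P18Rik (3253 bp), Lin28a (3142 bp), which encodes an RNA-binding protein of early progenitors, and Espn (3088 bp). With equal lists by fold, Tfap2c, Dmrt3, Pax6, Msx1, Ccdc106 and Aldh1a2 left the class, with equal lists by −log10 q only Aldh1a2 and Fgf22 left and 17 of the 19 named genes were kept, and Nhlh1, Oprk1, Sct and Cbln4 were among the 8 of 19 named genes that stayed under all 8 alternatives.

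The LGE-missing class held promoters of 58 protein-coding genes (0.264%), and 25 of them (43.1%, 31.2% to 55.9%) had no LGE promoter peak. The gene count fell to between 21 and 23 with equal lists, a common minimum width or promoters at the 5′ end of the gene alone. No gene of the pan-eminence, MGE, CGE, LGE or cortical lists was in it, which is not set apart from the 0.264% of all protein-coding genes. The list genes were Hes1 and Aldoc (2 of 28 radial glia and cell cycle genes, 7.14%), Foxd2 and Gbx2 (2 of 21 hypothalamic and diencephalic genes, 9.52%) and Slc4a1 (1 of 14 erythroid genes). With equal lists by −log10 q all of these genes left the class, and by fold all but Aldoc left. The fixed lists place Foxd2, Gbx2 and Slc4a1 with tissue or cells outside the eminences, which does not make them absent from the eminences. The part of such cells in the class was not tested.

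Crmp1, which encodes a collapsin response mediator of growing axons, was the strongest and widest LGE-missing promoter, at rank 29.2 and 2674 bp. CGE peaks covered all of it, but MGE peaks only 252 bp and CTX peaks 135 bp, and another Crmp1 promoter had an LGE peak, the nearest being 1282 bp away. Gbx2, a homeobox gene of diencephalon and hindbrain border, was likewise covered for 2203 bp in CGE against 1162 bp in CTX and 145 bp in MGE. Foxd2, a forkhead gene, had 1511, 527 and 772 bp in CGE, CTX and MGE, and Slc4a1, the band 3 anion exchanger of red cells, 1239, 201 and 350 bp. CGE peaks covered the most bases of these 4, as of 55.2% of all LGE-missing intervals and 74.5% of intervals in all 4 lists. The list is picked from 3 in the former and from 4 in the latter.

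Hes1, the Notch effector of radial glia, was covered more evenly. Its 418-bp interval was covered for 418, 317 and 358 bp in CGE, CTX and MGE, and another Hes1 promoter had an LGE peak, the nearest being 756 bp away. Aldoc, an aldolase of glia, had 515, 243 and 252 bp in CTX, MGE and CGE, and no LGE promoter peak. The other strong promoters of protein-coding genes in the class were those of P4ha2, Ptges, Mef2b, Ccdc82 and Jrkl (1 shared interval), Nfic, Cfap97d2, Myo7a and Fibp, at ranks from 21.6 to 15.95. All of them except Cfap97d2 and Myo7a had an LGE peak at another promoter. Of the 15 named LGE-missing genes 6 were kept when lists were made equal by fold. P4ha2, Ptges and Nfic alone stayed under all 8 alternatives that changed the peaks or the members. With promoters at the 5′ end of the gene alone 9 of the 15 were kept, and P4ha2 and Nfic left.

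The CGE-missing class held promoters of 42 protein-coding genes (0.191%), 26 of them (61.9%, 46.8% to 75.0%) with no CGE promoter peak. The gene count was 27 with peaks of −log10 q of at least 2, 21 with equal lists by −log10 q and 19 with promoters at the 5′ end of the gene alone. Its 4 strongest intervals stood far from the rest. They lay at the shared promoter of Aida and Brox (rank 95.1), at Trmt10c (89.6), Phf10 (69.0) and Pwwp2a (42.4), and each fell where the CGE list skips a peak number, whereas the next promoter, that of Ehd2, ranked 27.7. Aida and Brox were covered for 1629, 1674 and 1800 bp in CTX, MGE and LGE with −log10 q of 56.9, 53.3 and 187, and Trmt10c, a mitochondrial tRNA methyltransferase subunit, for 689, 630 and 1306 bp with 60.0, 57.8 and 123. These values exceed the medians of intervals in all 4 lists, where the median −log10 q was 17.3 in CTX, 14.7 in MGE and 51.0 in LGE.

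Phf10, a subunit of a chromatin remodelling complex, was covered for 1078, 549 and 710 bp in CTX, MGE and LGE, and Pwwp2a, a chromatin reader, for 724, 535 and 1382 bp. The 61 places where the CGE numbering skips span 16.0 Mb, and what carried the skipped numbers was not analysed here. Members at skipped numbers in the other classes ranked between 0.163 and 15.5. Leaving out all members at skipped numbers took the CGE-missing class from 226 to 222 intervals and its promoter share from 23.5% to 22.1%.

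**Figure D4:**
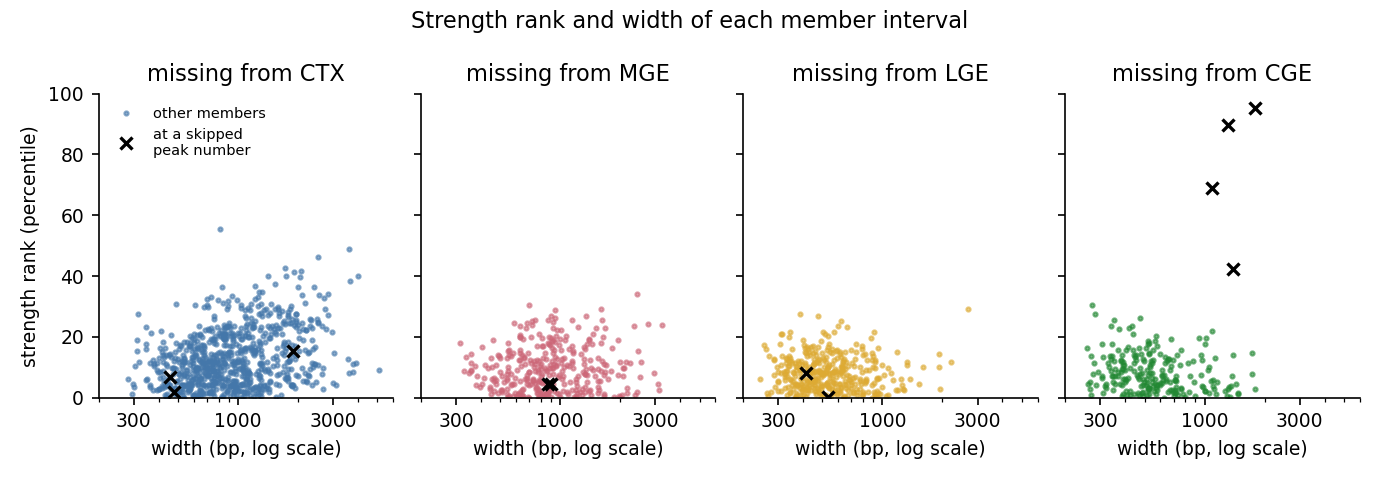
Strength rank (percentile, the lowest over the 3 lists) against width (bp, log scale) of every member, by class. Crosses mark members at a skipped peak number of the missing list. In the CGE-missing class the 4 crosses, at ranks 42.4 to 95.1, lie above all other points, and elsewhere the crosses lie at 15.5 or below.

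Of the fixed lists only Vax1 and Ccnd1 were CGE-missing, and both had a CGE peak at another promoter. Vax1, a homeobox gene of the ventral forebrain, was covered for 774, 934 and 376 bp in CTX, MGE and LGE at rank 0.620, with a CGE peak 170 bp away. Ccnd1, the cyclin D1 gene of dividing progenitors, had 427, 429 and 258 bp. After the skipped places the strongest promoters of protein-coding genes were those of Ehd2, Chrnb1, Fam198a, Arhgap23 and Stat4, at ranks from 27.7 to 17.0. Chrnb1, an acetylcholine receptor subunit, was covered for 440, 253 and 323 bp in CTX, MGE and LGE. The −log10 q was 24.5, 24.5 and 6.93, at percentiles of 74.0, 81.8 and 20.9. LGE was the lowest, as in the medians of the whole class (26.5 in CTX, 34.8 in MGE and 8.16 in LGE).

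Lists of cells outside the neural tube gave at most 1 member each. Of 14 microglial genes none was a member, 12 had no promoter peak in any list and none had one in all 4. Of 15 endothelial and pericyte genes 1 was CTX-missing, Sox18, a transcription factor of vessels, covered for 134, 1390 and 1494 bp in MGE, LGE and CGE, while 5 of the 15 had a promoter interval in all 4 lists. These shares, 6.67% for Sox18 among endothelial genes without CTX, 6.67% for Aldh1a2 among mesenchymal genes without MGE and 7.14% for Slc4a1 among erythroid genes without LGE, each rest on 1 gene and stand beside 1.35%, 0.765% and 0.264% of all protein-coding genes. Each of these genes left its class with equal lists by −log10 q and with equal lists by fold. Among 21 hypothalamic and diencephalic genes the homeobox gene Hmx2 was CTX-missing, at 128, 960 and 1324 bp. None of the 29 annotated housekeeping genes was a member, a count that is not set apart from the 2.53% of all protein-coding genes in any class, and 28 of them had a promoter interval in all 4 lists, as had 32 of 33 guidance genes and 27 of 28 radial glia and cell cycle genes. Over all lists, 26 of 462 genes were CTX-missing (5.63%), 11 MGE-missing (2.38%), 5 LGE-missing (1.08%) and 2 CGE-missing (0.433%).

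Members of a class sometimes lay together. The CTX-missing stretch with the most members held 6 in 234 kb of chromosome 17 around Six2, Six3 and Camkmt, among 11 union intervals of which only 2 had a CTX peak. On chromosome 12 it held 4 in 313 kb around Nkx2-1, Nkx2-9 and Mbip, among 18 intervals of which 1 had a CTX peak, and on chromosome 11 it held 4 in 44.9 kb at Tex14, among 5. The MGE-missing stretches had at most 4 members, in 364 kb of chromosome 2 around Zfp217, Cyp24a1 and Bcas1, where 5 of 12 intervals had an MGE peak. Those missing from LGE had 4 around Adssl1, Akt1 and Kif26a on chromosome 12, in 444 kb where 6 of 20 intervals had an LGE peak, and 4 around Nfix and Dand5 on chromosome 8, in 81.7 kb where 3 of 13 intervals had an LGE peak, and those missing from CGE had 3 at Srebf1 and Tom1l2 on chromosome 11.

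CpG content differed between the classes also among intervals of the same kind. In the 500 bp at the centre of each interval, the median ratio of observed to expected CpG was 0.592 for MGE-missing, 0.475 for CTX-missing, 0.320 for CGE-missing and 0.304 for LGE-missing intervals, against 0.735 for intervals in all 4 lists. At promoters alone it was 0.626, 0.549, 0.426 and 0.411 in that order, and more than 2 kb from a TSS 0.502, 0.414, 0.281 and 0.281. The far MGE-missing median lay near that of far intervals in all 4 lists (0.483), and the far LGE- and CGE-missing ones were close to far intervals of the whole union (0.254). Sequence was not used to choose the members, and strength rank, which was also higher in the CTX- and MGE-missing classes, was not held constant. Width was not held constant either. The 25th percentile of width was 409 bp for LGE-missing and 400.25 bp for CGE-missing intervals, against 639.5 bp without CTX and 643.5 bp without MGE, and far intervals of the union had a median of 256 bp. The windows of narrower intervals, here and in the motif counts, thus took in flanking sequence outside the peaks, and the part of this in the differences was not tested.

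**Figure D5:**
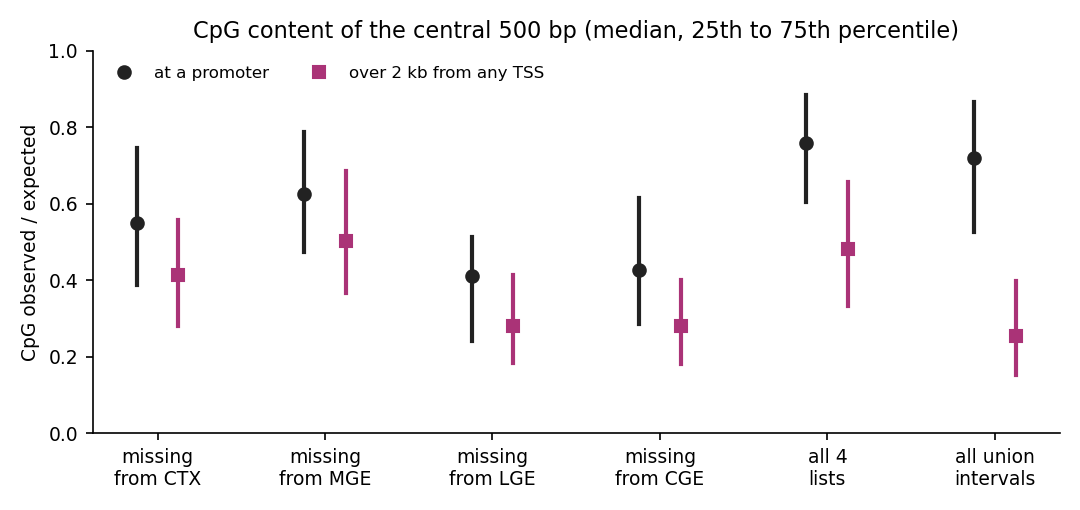
Ratio of observed to expected CpG in the central 500 bp of intervals, for those at a promoter (circles) and more than 2 kb from any TSS (squares). Symbols are medians and bars run from the 25th to the 75th percentile. The medians of MGE-missing intervals (0.626 and 0.502) are the highest of the 4 classes in both settings.

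Short motifs were counted in the same 500-bp windows of intervals more than 2 kb from a TSS. TAATTA, a homeodomain core that reads the same on both strands, was found in 20% of LGE-missing, 20.8% of CGE-missing, 16.6% of CTX-missing and 14.2% of MGE-missing intervals, against 14.8% of far intervals of the union and 10.3% of those in all 4 lists. CAGCTG, an E-box that also reads the same on both strands, was found in 48.4% of CGE-missing and 36.9% of LGE-missing intervals. It was found in 34.0% of CTX-missing and 25.8% of MGE-missing ones. The share was 32.6% in far intervals of the union and 35.5% in those of all 4 lists. The Wilson interval of the CGE-missing share was 40.8% to 56.1%, and that of the MGE-missing share 18.8% to 34.3%. CAGATG, searched with its complement CATCTG, lay between 26.7% and 35.8% in the 4 classes and was in 33.5% of far intervals of the union. A match is a description of the letters and not of binding. By count, MGE-missing windows, which are richest in CpG, held each motif least often among the 4 classes. For TAATTA and CAGATG their Wilson intervals (9.04% to 21.5% and 19.6% to 35.2%) overlapped those of each other class. For CAGCTG theirs overlapped those of CTX-missing (29.2% to 39.2%) and LGE-missing intervals (31.3% to 42.9%), and not that of CGE-missing ones.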

How the data were processed

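The authors aligned CUT&Tag reads with Bowtie2 to GRCm38 (mm10), removed blacklisted reads and Picard duplicates, merged replicates with SAMtools, and called broad peaks with MACS (version, control and threshold not given in the sources used here). Each deposited list gives, per peak, a score (the −log10 q multiplied and cut to a whole number by the peak caller), a fold enrichment over the authors' background and the deposited −log10 q. The deposited −log10 p was not used. The study's methods give unequal sequencing depths for the regions, but the deposited files hold no read counts, so the reads behind a peak are unknown.

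Peaks that overlapped or touched were joined (Python 3.11.15, numpy 2.4.6, pandas 2.3.3, scipy 1.17.1, matplotlib 3.10.9). Promoters were the 2 kb upstream of any TSS of the GENCODE M21 annotation of GRCm38, with an overlap of at least 1 bp. Shares carry Wilson 95% intervals. No test was made, since each region is 1 pooled list. Genes named are those of 19 fixed lists, the 10 protein-coding genes with the highest strength rank, the 3 widest intervals and the 3 densest 500-kb stretches of each class. Members and lists were chosen with earlier results of these data known. Alternatives changed the peaks, the joining, the absence rule, the chromosomes and the promoter definition; leaving out members at skipped numbers was added after seeing the data. On simulated lists, joining, overlap and distance gave the same answer as counting base by base (20 of 20 sets). A few genes of the lists are counted but not reported here by name.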

Additional observations from a re-analysis of the deposited data

How the results depend on the processing

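Of 164 values recomputed under the alternatives, 107 stayed within the set margin and 57 moved. CTX was missing most often and CGE least under every alternative run, and the promoter shares without CTX and without MGE stayed above those without LGE and without CGE. Keeping peaks with a −log10 q of at least 2 gave 609 intervals missing from MGE and 133 from CGE, promoter shares of 55.6% (CTX) and 60.1% (MGE), a median width of 1007.5 bp (CTX), and 330 (MGE) and 27 (CGE) protein-coding genes. Lists cut to equal length by −log10 q gave 636 (MGE), 141 (LGE) and 96 (CGE) intervals, shares of 55.9% (CTX) and 60.8% (MGE), widths of 1045 bp (CTX), 908 bp (MGE) and 482 bp (LGE), and 347 (MGE), 21 (LGE) and 21 (CGE) genes. Equal length by fold gave 741 (MGE) and 191 (LGE) intervals, shares of 56.8% (CTX), 62.2% (MGE) and 36.5% (CGE), widths of 1084 bp (CTX), 963 bp (MGE) and 563 bp (CGE), and 433 (MGE) and 23 (LGE) genes. Removing peaks under 243 bp gave 537 (MGE), 160 (LGE) and 104 (CGE) intervals, a share of 34.6% (CGE), widths of 942.5 bp (CTX), 586.5 bp (LGE) and 589.5 bp (CGE), and 23 genes (LGE). In these 4 settings MGE was missing more often than LGE, and they remove more peaks from the longer MGE and CTX lists than from LGE and CGE. With promoters 1 kb either side of a TSS the shares were 51.1% (CTX) and 60.2% (MGE), and with 2 kb 54.9% (CTX), 63.3% (MGE), 27.6% (LGE) and 29.6% (CGE). With protein-coding genes alone they were 38.1% (CTX), 48.0% (MGE), 15.9% (LGE) and 17.7% (CGE). With the 5′ end of the gene alone they were 31.6% (CTX), 41.3% (MGE), 10.6% (LGE) and 14.2% (CGE), with 180 (CTX), 22 (LGE) and 19 (CGE) genes. Asking that most of the interval lie in the promoter gave 21.9% (CTX), 30.6% (MGE), 13.9% (LGE) and 15.9% (CGE). Joining peaks under 1 kb apart, asking for no peak of the missing list within 1 kb, keeping autosomes and leaving out members at skipped numbers moved none of these values. The CGE-missing named genes fell to 7 of 12 without the skipped numbers. With the 5′ end of the gene alone the named genes kept were 21 of 32 (CTX), 17 of 19 (MGE), 9 of 15 (LGE) and 6 of 12 (CGE). No paired analysis was possible because each region is represented by 1 list called on its merged replicates, and for the same reason no replicate could be left out.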

Other observations

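Families of genes grouped by symbol, chosen after their values were seen, gave further counts beside the 1.35% of all protein-coding genes that were CTX-missing and the 0.765% that were MGE-missing. Of 94 potassium channel genes (Kcn), 8 were CTX-missing (8.51%) and 3 MGE-missing, and of 26 calcium channel genes (Cacn) 4 were CTX-missing (15.4%), namely Cacna1i, Cacnb4, Cacng3 and Cacng5. Of 22 serotonin, dopamine and opioid receptor genes, 5 were CTX-missing (Drd2, Htr1d, Htr2c, Oprd1 and Oprm1) and 4 MGE-missing (Drd5, Htr1f, Htr5b and Oprk1). Separately counted, 8 of the 22 had a promoter interval in all 4 lists. None of the 3 families had an LGE-missing member, which is not set apart from the 0.264% of all protein-coding genes. Kcnh2 was the only CGE-missing one. No test was made of these counts.

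Other families stood on both sides of the 2.53% of all protein-coding genes in any class. Of 46 glutamate and GABA receptor genes 7 were CTX-missing and 2 MGE-missing, of 8 LIM homeobox genes 2 were CTX-missing, and of 19 Sox genes 1 each was missing from CTX, MGE and LGE. Of 371 solute carriers 6 were CTX-missing, 3 MGE-missing and 3 LGE-missing. At the 2.53% share the ribosomal and histone families would be expected to hold few members, so their counts of 0 are not set apart from it. None of 79 ribosomal protein genes (75 with a promoter interval in all 4 lists) and none of 67 histone genes was a member, and of 394 Zfp zinc finger genes 1 was MGE-missing (Zfp217) and 1 LGE-missing (Zfp60). Of 1135 olfactory receptor genes, none of which had a promoter interval in all 4 lists, 1 was a member (Olfr658, LGE-missing).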
